A study of Homo sapiens with 12 samples.

Results

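Gene counts from 3 directional libraries of SETDB1 KO HAP1 cells were compared with those from 3 directional libraries of wild-type HAP1 cells, 6 of the 12 libraries of the series. They were taken as the libraries whose titles name the directional kit, a kit that keeps the strand of the RNA. HAP1 is a near-haploid human cell line labelled as chronic myelogenous leukemia, and both groups were grown in the same medium without further treatment. The labels do not say how the knockout was made, whether it is 1 clone, or which separate cultures the biological replicates stand for, so p-values measure the spread between these libraries. The 6 non-directional libraries of the same genotypes, 3 of each, were used only to read the directional rows.

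SETDB1 is a methyltransferase that places repressive marks on lysine 9 of histone H3. It is brought to DNA by zinc finger repressor proteins through the co-repressor TRIM28 and is known for silencing retroelements, germline genes and some zinc finger genes. Many human genes overlap a gene on the other strand, often a long non-coding antisense RNA that starts near or inside its partner. A library that keeps strand can assign a read from such a place to the gene it came from, whereas without strand the read is ambiguous.

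The directional tables placed 532021 to 676691 reads per library in genes, which was 5.23 to 5.30% of the reads they list, and 94.6% in no gene. The non-directional tables placed 80.3 to 80.4% in genes. Their listed reads include 797850 to 897413 per library that aligned at more than 1 place, whereas the directional tables list 0 such reads. Shares of listed reads are therefore not on quite the same base in the kits. The share of reads called ambiguous was 0.140% ± 0.0016 in directional wild-type and 0.144% ± 0.0020 in directional knockout libraries (mean ± SD of 3), against 8.39% and 8.38% in the non-directional libraries. At this depth 3 reads of a gene correspond to 4.43 to 5.64 counts per 1000000 gene counts (CPM). Replicates of a genotype differed a little beyond sampling noise, by 1.05 to 1.24 times the chi-square that counting alone gives, and the 2 highest values both involved knockout replicate 3. Of 15 hematopoietic marker genes, 4 exceeded 1 CPM in the non-directional wild type and knockout (GATA2, KIT, TAL1 and CD38), and 9, among them PTPRC and CD34, had at most 3 reads in any library. TAL1 was at 16.1 ± 0.26 CPM in wild-type and 3.24 ± 0.52 in knockout libraries. Of 12 epithelial and fibroblast markers, 7 exceeded 1 CPM in wild-type and 5 in knockout libraries, with EPCAM at 3.74 ± 0.98 and 39.7 ± 1.05 CPM (SD of 3 libraries), and their part in the results was not tested. All 10 housekeeping genes exceeded 1 CPM.

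SETDB1 itself gave the first reading of the strand. The row named SETDB1 (chromosome 1, 150926263 to 150964744, plus strand, GRCh38) held 12, 17 and 7 reads in wild-type replicates 1, 2 and 3, against 6, 4 and 11 in knockout replicates 1, 2 and 3. The groups overlapped, and the log2 fold change of -0.71 did not pass the test (± 0.41 SE, adjusted p = 0.256 by edgeR). CERS2, which encodes a ceramide synthase, is the only gene row whose exons overlap those of SETDB1 from the other strand (150960583 to 150975004, minus strand, 948 shared exonic bases). The CERS2 row held 268, 296 and 218 reads in wild-type libraries and 74, 59 and 60 in knockout libraries. Every knockout library lay below every wild-type library, and the level fell from 428 ± 15.8 to 110 ± 7.47 CPM (SD, n = 3 each), a log2 change of -1.96 (± 0.11 SE, adjusted p = 2.6e-29 by edgeR). In the non-directional libraries SETDB1 changed by -2.39 (log2, 651, 543 and 519 reads to 118, 106 and 118) and CERS2 by -0.50. The directional CERS2 row thus moved by an amount nearer to that of SETDB1 than to that of CERS2. The knockout effect on the CERS2 row differed from that on non-directional CERS2 by -1.39 (log2, edgeR genotype by kit term, adjusted p = 1.5e-25).

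**Figure D1:**
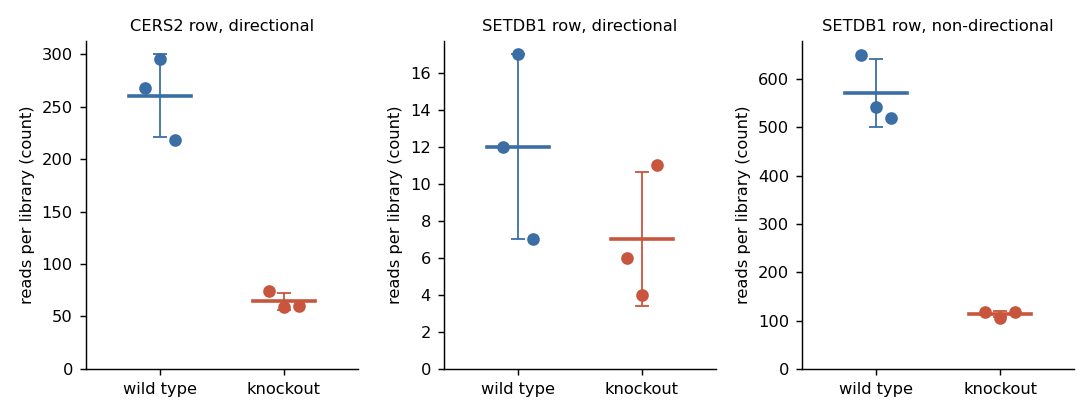
Reads per library (count, y axis) of the CERS2 and SETDB1 rows in the directional libraries and of the SETDB1 row in the non-directional libraries, wild type in blue and knockout in red; points are libraries, horizontal lines are means and bars are SD (n = 3 each). The CERS2 row separates the genotypes (218 to 296 against 59 to 74 reads) as the non-directional SETDB1 row does, whereas the directional SETDB1 row overlaps.

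The same held across rows. Of 4745 rows with enough reads to test, 3853 had exons overlapping an exon of a gene on the other strand, 117 overlapped only the body of such a gene and 775 had none. All rows of the first kind, tested or not, took 91.8% ± 0.13 of directional gene counts in wild-type and 91.8% ± 0.06 in knockout libraries (mean ± SD of 3). In the non-directional libraries they took 38.7%. Among 2574 rows with exactly 1 such partner tested in the non-directional libraries, the log2 fold change of the row and that of the partner had a Spearman rho of 0.62. In the 1173 of these rows whose own gene was tested too, rho was 0.55 with the partner and 0.24 with the gene that names the row. For the level, rho was 0.37 with the partner and -0.09 with the own gene. These are descriptions across rows of the same 12 libraries, and rows are not independent replicates.

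**Figure D2:**
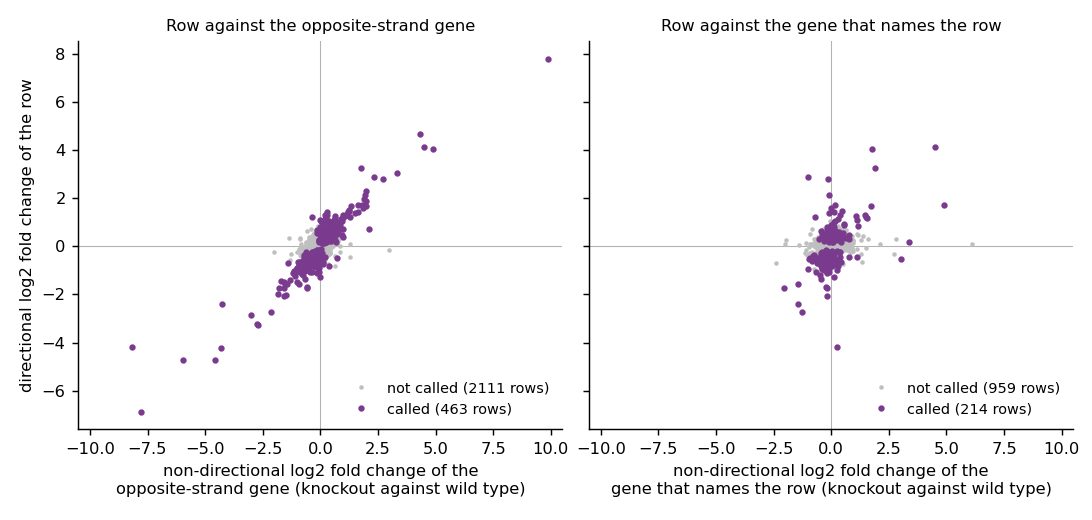
Directional log2 fold change of each row (y axis) against the non-directional log2 fold change (x axis) of its single opposite-strand partner (left) or of the gene that names it (right); purple rows passed an edgeR adjusted p of 0.05 and grey rows did not. On the left 439 of 463 called rows share the sign of the partner, and the points follow a rising line that is weaker on the right (Spearman rho 0.55 and 0.24 over the 1173 rows tested in both readings).

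Reads of the naming gene itself were scarce in its row. In 1328 rows with no gene on the other strand and at least 1000 non-directional reads, the directional level, scaled to the listed reads, was a median of 0.482% of the non-directional level, with 90% of rows between 0.181 and 1.25% and the highest at 5.55%. The median was 0.471% ± 0.023 in wild-type and 0.483% ± 0.009 in knockout libraries (mean ± SD of 3), and a difference was not detectable (two-sided exact permutation test, p = 0.6, where 3 against 3 libraries cannot go below 0.1). In what follows, a directional row is therefore given with the genes that overlap it on the other strand and their non-directional values.

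Between knockout and wild type, 769 of the 4745 rows (16.2%) passed an edgeR adjusted p of 0.05, 364 higher in the knockout (7.67%) and 405 lower (8.54%). At least a doubling was seen in 103 and at least a halving in 85, and the median over all rows was 0.0015 (log2). The libraries of the genotypes did not overlap in 724 of the called rows and in 30.2% of all rows. A different tool gave fewer calls: the DESeq2 Wald test called 330 rows, all of them among the 769, 164 higher and 166 lower. Without adjustment 1281 rows had a p under 0.05 in edgeR and 770 in DESeq2. Rows with an opposite-strand exon made up 661 of the called rows and rows with no gene opposite 93. Of the 1369 rows of genes annotated as antisense RNA, 119 rose and 147 fell. The non-directional libraries called 7089 of 13778 genes (51.5%), and for 382 of the 387 called directional rows whose single partner was called there too, row and partner had the same direction. The same was so for 91 of the 115 called rows with 1 tested partner whose own gene was called there.

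Most of the rows that rose most had few or no reads in the wild type, and so had the genes opposite them. AC104117.2, a processed pseudogene on the minus strand of chromosome 5 (179082680 to 179083194), held 0, 0 and 0 reads in wild-type libraries and 27, 25 and 29 in knockout libraries. All of its 515 exonic bases lie in exons of ZNF354C, a KRAB zinc finger gene, which had 0 non-directional reads in each wild-type library and 116, 120 and 122 in the knockout. With the wild type set at 3 reads per library, the row was at least 9.34-fold higher (edgeR adjusted p = 2.0e-15). TEX28, a testis-expressed gene at the distal end of the X chromosome, held 0, 1 and 1 reads against 25, 30 and 18, with no overlap. It shares 167 exonic bases with TKTL1, which encodes a transketolase-like protein and rose from 15, 6 and 7 to 455, 508 and 480 non-directional reads. TEX28 also shares 507 exonic bases with OPN1MW3, which had 0 non-directional reads in each library. The ratio of the TEX28 row was 38.1 (95% interval from counting error 10.2 to 321, edgeR adjusted p = 1.3e-12).

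AC004696.1, an unprocessed pseudogene, held 0, 2 and 2 reads in wild-type libraries and 37, 24 and 46 in knockout libraries, a log2 change of 4.67 (± 0.44 SE, adjusted p = 1.5e-15 by edgeR). It shares 118 exonic bases with ZNF667-AS1, a long non-coding RNA next to the zinc finger gene ZNF667, which rose from 7, 8 and 5 to 132, 157 and 143 non-directional reads. FAM153A rose from 4, 3 and 6 to 85, 65 and 76 reads (log2 change 4.14 ± 0.27 SE, adjusted p = 6.4e-25 by edgeR), where the antisense gene AC138819.1 lies on the other strand. AC138819.1 rose from 9, 2 and 4 to 132, 115 and 118 non-directional reads. FAM153A belongs to a family of close copies, so its reads may be shared with them. GAS6, named for a secreted ligand of receptor tyrosine kinases, rose from 1, 2 and 1 to 23, 30 and 17 (log2 change 4.06 ± 0.48 SE, adjusted p = 4.0e-11 by edgeR), and GAS6-AS1 over it rose from 4, 3 and 1 to 79, 89 and 89 non-directional reads. In each of these rows the lowest knockout library exceeded the highest wild-type library severalfold.

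Most of the rows that fell most were left with few or no reads in the knockout, as were the genes opposite them. AP000757.1, an antisense RNA gene on chromosome 11 (117833719 to 117838942, plus strand), held 146, 139 and 125 reads in wild-type libraries and 1, 0 and 2 in knockout libraries. It shares 625 exonic bases with FXYD6, which encodes a regulator of the sodium pump and fell from 106, 79 and 103 to 0, 0 and 1 non-directional reads. The row was 131 times higher in the wild type (95% interval from counting error 44.5 to 638, edgeR adjusted p = 1.9e-35). In the wild type it held more reads than FXYD6 did in the non-directional tables. The body of FXYD6-FXYD2, which had 0 non-directional reads, also lies opposite, and the source of the reads was not tested. CLMAT3, an antisense RNA over the matrix protein gene SPARC, fell from 25, 20 and 19 to 1, 1 and 0 reads (30.7 times, interval 8.15 to 259, edgeR adjusted p = 8.8e-11). SPARC fell from 405, 382 and 369 to 14, 10 and 26 non-directional reads. AL645933.1, a pseudogene in the MHC region, fell from 26, 38 and 29 to 1, 2 and 0 (29.7 times, interval 9.85 to 147, edgeR adjusted p = 3.1e-14), beneath HCP5, a non-coding RNA of that region, which fell from 311, 346 and 315 to 6, 4 and 6. No row of this group had overlapping genotypes.

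FAM198B-AS1 fell from 84, 85 and 77 to 5, 2 and 3 reads (log2 change -4.51 ± 0.28 SE, adjusted p = 2.4e-26 by edgeR), over FAM198B, a gene for a Golgi-associated protein, at -3.87 in the non-directional libraries. CD44-AS1 fell from 60, 51 and 42 to 7, 2 and 6 (log2 change -3.26 ± 0.29 SE, adjusted p = 1.1e-16 by edgeR), over the hyaluronan receptor gene CD44, at -2.70. AC005277.1 (log2 -3.23), over ARHGAP44, and AL139807.1 (log2 -2.87), over the scaffold protein gene NEDD9, fell with partners at -2.73 and -2.99. PCAT1 fell from 28, 31 and 26 to 1, 2 and 1, with FAM84B opposite at -4.30. ZFAND1 fell from 12, 17 and 16 to 0, 2 and 0 (ratio 21.6, interval 5.63 to 183). The ZFAND1 row went against its own gene, which was higher in the non-directional knockout (log2 0.27), and with CHMP4C opposite, which fell from 40, 25 and 40 reads to 0 in all 3 libraries. CHMP4C encodes a subunit of the ESCRT-III membrane-remodelling complex.

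Of the 3 remaining rows of the 12 largest falls, C1orf21 had no gene opposite and is given later with such rows, and the other two lay opposite a gene with few non-directional reads. GPR39, a G protein-coupled receptor gene, held 28, 26 and 27 reads in wild-type libraries and 1, 0 and 2 in knockout libraries (ratio 25.9, interval 8.54 to 128, edgeR adjusted p = 1.1e-12). LYPD1, whose exons share 1180 bases with it, had 7, 4 and 10 non-directional reads in the wild type and 0 in each knockout library, too few to be tested there. TTC30A, an intraflagellar transport gene, held 34, 44 and 25 against 0, 2 and 0 (ratio 49.3, interval 13.3 to 413, edgeR adjusted p = 7.7e-16). The antisense gene AC073834.1 over it had 1, 3 and 4 against 0, 0 and 0 non-directional reads. TTC30A itself changed by -0.73 in the non-directional libraries.

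**Figure D3:**
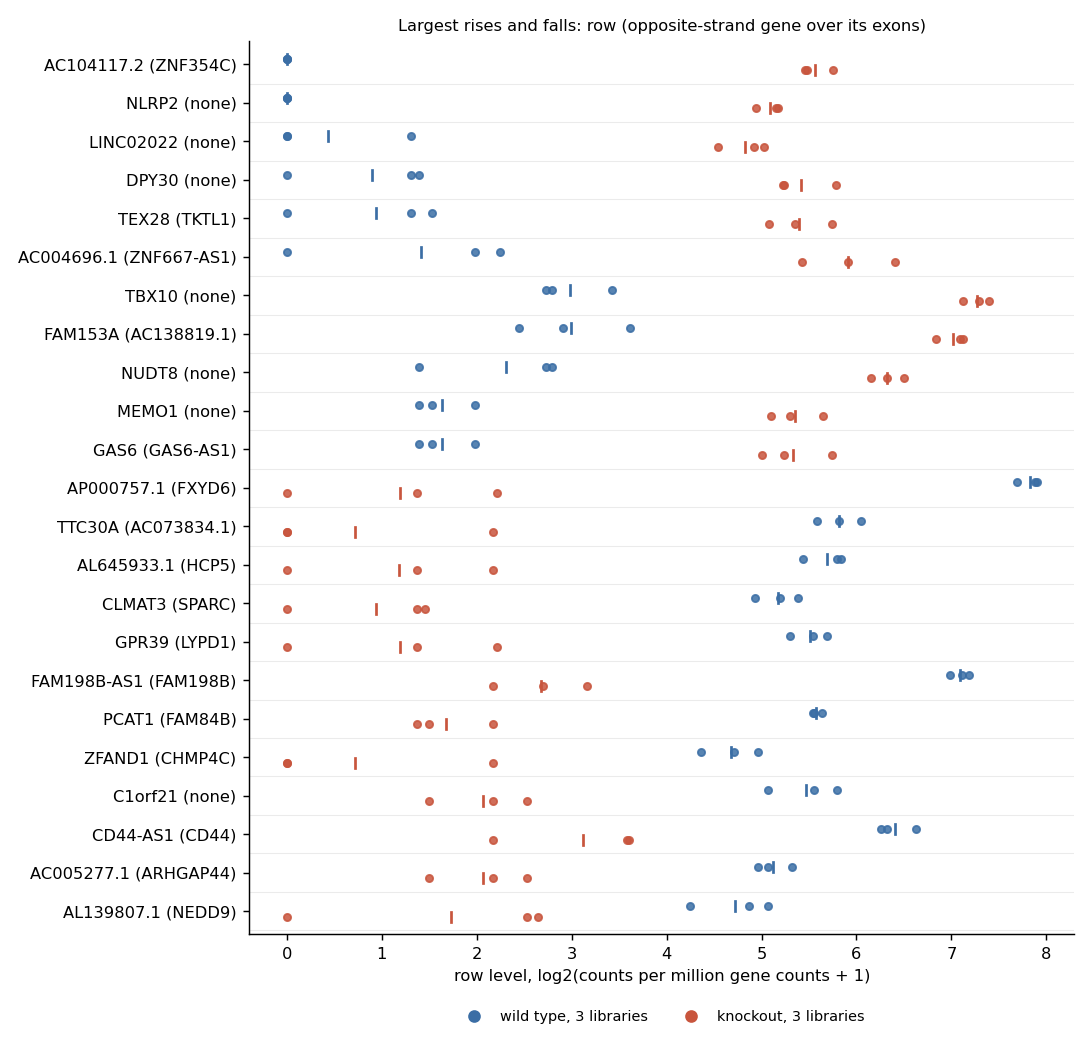
Level of 11 of the 12 rows with the largest rises and of the 12 with the largest falls, as log2(CPM + 1), with the opposite-strand gene over a row's exons in brackets, or none where no such gene shares exonic bases; points are libraries (blue wild type, red knockout, 3 each) and ticks are means. No row has overlapping genotypes, and the rows at the left edge had 0 reads.

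The starts of 4 of these opposite-strand genes are shown because rows described above lie opposite them: ZNF354C and TKTL1 among the rises, HCP5 and SPARC among the falls. Each is the 250 bases before the annotated start, from RefSeq on GRCh38.p14, 5′ to 3′ on the strand of the gene, with every CG dinucleotide in capitals. They lie at chr5:179060123-179060372 (plus), chrX:154295545-154295794 (plus, the first of 2 starts listed), chr6:31462930-31463179 (plus) and chr5:151686916-151687165 (minus).
ZNF354C: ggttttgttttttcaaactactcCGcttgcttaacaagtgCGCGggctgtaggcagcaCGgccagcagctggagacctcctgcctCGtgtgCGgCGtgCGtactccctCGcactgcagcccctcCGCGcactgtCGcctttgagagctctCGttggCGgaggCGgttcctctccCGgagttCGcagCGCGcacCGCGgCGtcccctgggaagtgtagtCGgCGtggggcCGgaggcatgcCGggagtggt
TKTL1: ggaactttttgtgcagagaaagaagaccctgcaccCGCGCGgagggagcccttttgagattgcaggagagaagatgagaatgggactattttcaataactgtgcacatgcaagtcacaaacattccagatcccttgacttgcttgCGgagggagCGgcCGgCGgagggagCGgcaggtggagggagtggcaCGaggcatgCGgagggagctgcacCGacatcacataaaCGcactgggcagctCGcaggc
HCP5: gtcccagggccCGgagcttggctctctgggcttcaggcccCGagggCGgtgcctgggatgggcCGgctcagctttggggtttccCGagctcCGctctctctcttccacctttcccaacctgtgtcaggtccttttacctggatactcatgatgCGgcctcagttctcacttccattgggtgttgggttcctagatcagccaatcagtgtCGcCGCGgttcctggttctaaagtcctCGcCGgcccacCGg
SPARC: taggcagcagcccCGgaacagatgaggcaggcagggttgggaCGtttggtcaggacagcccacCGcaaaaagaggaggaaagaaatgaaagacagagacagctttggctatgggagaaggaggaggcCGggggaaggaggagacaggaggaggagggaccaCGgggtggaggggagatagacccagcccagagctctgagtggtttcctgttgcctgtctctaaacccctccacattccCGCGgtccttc
The dinucleotide CG occurs 26 times before ZNF354C, 13 times before TKTL1 and HCP5 and 7 times before SPARC. As many or more were found in 19.6%, 46.6%, 46.6% and 58.9% of 35116 such windows, whose median is 11. The counts describe these windows and say nothing of their methylation, which was not measured.

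Some large changes lay where no gene is annotated on the other strand. Of the 93 called rows of this kind, 49 rose and 44 fell, and 30 of them stood above 10% of the non-directional level of their own gene, beyond the range of the well-covered rows given earlier. Among 775 tested rows with no gene opposite, 85 stood above that level. TBX10 and NUDT8 are neighbours on the minus strand of chromosome 11 (67631303 to 67639560 and 67627938 to 67629930). TBX10, a T-box transcription factor gene, held 6, 4 and 3 reads in wild-type libraries and 105, 89 and 76 in knockout libraries (log2 change 4.39 ± 0.26 SE, adjusted p = 7.2e-28 by edgeR). NUDT8, a nudix hydrolase gene, held 1, 4 and 3 against 44, 45 and 49 (log2 change 4.10 ± 0.34 SE, adjusted p = 1.8e-18 by edgeR). Both rows rose in every knockout library, and the nearest plus-strand gene tested in the non-directional libraries that ends before them is NDUFV1, 15384 bases from NUDT8, which changed by 0.18 in the non-directional libraries.

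For some of these genes the directional row was about as large as the non-directional count. Scaled to the listed reads of each library, the directional TBX10 row held 108% of the non-directional TBX10 level, which itself went from 2, 4 and 3 to 82, 93 and 105 reads. For NUDT8, whose non-directional reads fell from 146, 162 and 128 to 74, 53 and 87, the directional row amounted to 24.3% of the non-directional level over all libraries and to 72.4% in the knockout. The change of the NUDT8 row thus had opposite signs in the libraries of the kits, a difference of 5.32 (log2, edgeR genotype by kit term, adjusted p = 8.5e-42). Whether the directional reads of this row come from NUDT8 was not tested. FAM153A, described earlier, had a directional row at 115% of its non-directional level, and PLK5, a polo-like kinase gene named after its values were seen, one at 70.5%, with 4, 4 and 3 reads against 40, 36 and 24. LINC02022 and ST6GAL2 stood at 107% and 108%.

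RGMA, which encodes a repulsive guidance molecule of neurons, was named after its values were seen because its row had opposite directions in the kits. The RGMA row (chromosome 15, 93035273 to 93089204, minus strand) held 12, 6 and 6 reads in wild-type libraries and 120, 113 and 110 in knockout libraries, a log2 change of 3.87 (± 0.21 SE, adjusted p = 1.7e-29 by edgeR). Non-directional RGMA reads fell from 310, 319 and 302 to 167, 211 and 192. The groups did not overlap in either kit, and the kit term was 4.74 (log2, edgeR adjusted p = 6.1e-85). CHD2, a chromatin remodeller gene on the plus strand, ends 7268 bases before the row and changed by 0.15.

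Some neighbouring rows on the same strand rose together. DPY30, a subunit of histone H3 lysine 4 methyltransferase complexes, and MEMO1, which overlaps it on the same strand of chromosome 2, held 1, 1 and 0 and 1, 2 and 1 reads in the wild type. In the knockout they held 34, 21 and 20 and 24, 19 and 27 reads, with edgeR adjusted p of 6.6e-13 and 2.8e-11. LINC02022 rose from 0, 1 and 0 to 14, 18 and 16, and IQSEC1 beside it on the minus strand of chromosome 3, named after its values were seen, from 7, 10 and 6 to 50, 33 and 37. CAND2 ends 5606 bases before LINC02022 on the plus strand and changed by -0.29 in the non-directional libraries. SIVA1, a proapoptotic gene also named afterwards, rose from 4, 3 and 3 to 24, 22 and 27 (log2 2.88), 855 bases from the end of the kinase gene AKT1, which changed by 0.06.

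Rows with no gene opposite also fell. C1orf21 held 20, 31 and 29 reads in wild-type libraries and 3, 2 and 1 in knockout libraries (log2 change -3.60 ± 0.43 SE, adjusted p = 4.5e-11 by edgeR). AL713852.1 is transcribed toward it from 6634 bases away and changed by -3.73 in the non-directional libraries, while C1orf21 changed by -0.79. ST6GAL2, a sialyltransferase gene, fell from 15, 15 and 12 to 3, 4 and 0 (log2 -2.47), with its own non-directional reads at 17, 11 and 17 against 1, 0 and 1. B2M, the light chain of MHC class I, fell from 20, 26 and 22 to 4, 7 and 5 (log2 change -2.01 ± 0.36 SE, adjusted p = 5.4e-06 by edgeR). The B2M row was 0.515% of its non-directional level, inside the range of the well-covered rows with no gene opposite given earlier. Non-directional B2M fell by 0.85 (log2). MEX3A, an RNA-binding protein gene, fell from 19, 13 and 10 to 4, 3 and 7, a call that the DESeq2 Wald test did not make (adjusted p = 0.116). It was also lost without wild-type replicate 1 (adjusted p = 0.127) and without knockout replicate 2 (0.059, both edgeR).

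Over the 26 such rows outside the mitochondrial genome that stood above 10%, 21 of 24 with a tested gene moved in the direction of their own gene in the non-directional libraries, and 21 of 26 in that of the nearest tested gene transcribed toward them. That nearest gene ended within 20 kb of 15 of the 26. Moving with the own gene was not particular to the 26. Of the 56 called rows outside the mitochondrial genome at or below 10%, 50 also did so, a similar share. The rows above 10% were set apart after their values were seen, so the counts are descriptions.

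**Figure D4:**
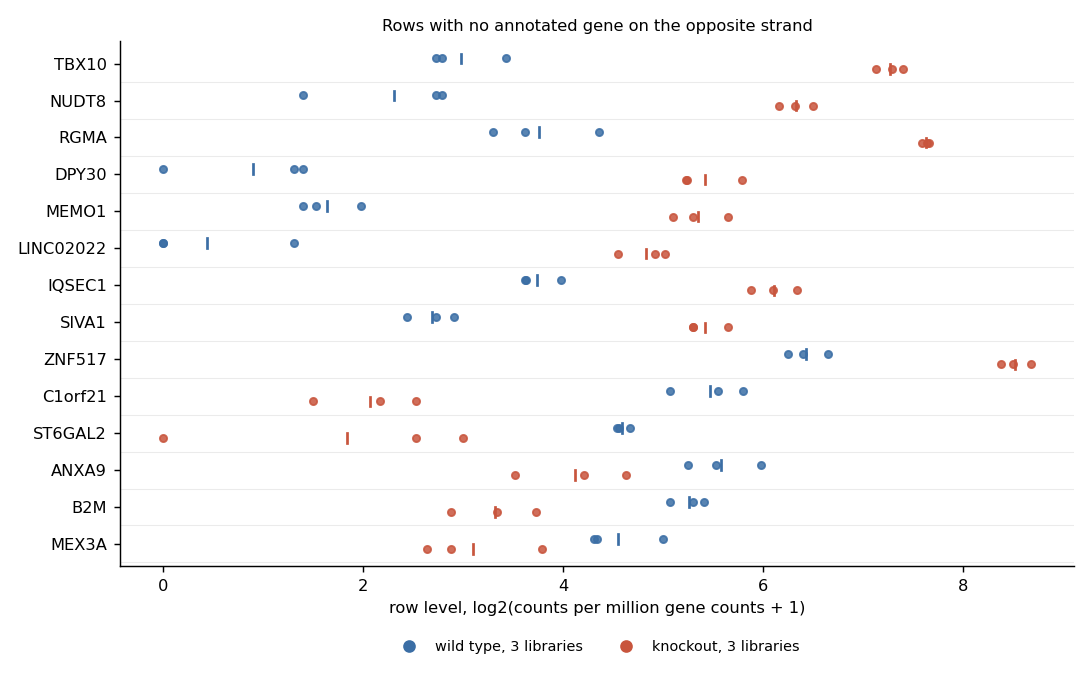
Level of 14 called rows with no annotated gene on the other strand, as log2(CPM + 1); points are libraries (blue wild type, red knockout, 3 each) and ticks are means. The upper 9 rows rise and the lower 5 fall, with the largest gaps at TBX10, DPY30 and LINC02022.

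The 12 most abundant called rows, 6 in each direction, changed by -0.73 (MT-ND6, given with the mitochondrial rows) to 0.60 (log2, AC245140.2). AC011603.2, opposite the tubulin gene TUBA1B, was at 28637 ± 519 CPM in wild-type and 25476 ± 852 in knockout libraries (mean ± SD of 3), a log2 fold change of -0.17 (edgeR adjusted p = 1.9e-05). AL662797.1, opposite TUBB, fell by 0.19 and AC145207.2, opposite ARHGDIA, by 0.25. Rows opposite 4 ribosomal protein genes rose: AP003352.1 (RPL30) by 0.18, ATG10 (RPS23) by 0.28, SH3D19 (RPS3A) by 0.31 and AC245140.2 (RPL10) by 0.60. RPL10 was 0.28 higher in the non-directional libraries and RPS3A 0.09, whereas RPL30 and RPS23 did not pass the test there (edgeR adjusted p = 0.756 and 0.128). MMACHC, opposite the peroxiredoxin gene PRDX1, rose by 0.31, and AL138963.3, opposite TPT1, by 0.15. In each of these rows the lowest library of the higher genotype exceeded the highest of the other.

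Some rows held more reads than the gene opposite them had in the non-directional tables. The row MIF-AS1 held 6031, 6341 and 5106 reads in wild-type libraries and 5662, 5044 and 4916 in knockout libraries, whereas MIF, the cytokine gene that shares 687 exonic bases with it, had 5 to 17 non-directional reads per library. AP000350.4, which overlaps MIF on the same strand and shares 357 exonic bases with the row, had 0 in each. Whether reads that fit both genes were left as ambiguous there was not tested. The row changed by -0.11 (log2, edgeR adjusted p = 0.021), a call not made by the DESeq2 Wald test (adjusted p = 0.053), nor by edgeR without wild-type replicate 1 (0.096) or knockout replicate 2 (0.115). Of 2898 tested rows with 1 partner, 487 held more reads than that partner in the non-directional libraries, and in 335 the partner had a mean under 10 reads. Only 13 of those rows had a mean over 100 reads. They include the rows opposite ZNF593 (mean 467 reads against 0), MGAT2 (612 against 9.83), ILK (297 against 3) and ZSCAN32 (199 against 5.67), none of which passed the test. The test was passed by 4 of the 13, against 16.2% of all rows. The 13 were picked for a mean over 100 reads, whereas all tested rows had a median of 30.5 reads per library. The shares are therefore not on the same base. BASP1, whose row lies opposite BASP1-AS1, held 103, 104 and 91 reads against 209, 166 and 195 (log2 0.99, edgeR adjusted p = 4.8e-13). EME2, opposite SPSB3, rose by 0.27, and ARHGDIA and NEPRO fell by 0.49 and 0.43 (edgeR adjusted p = 0.039, 0.0012 and 0.0074). Not all of the 13 need hold reads of the gene opposite: the GAPDH and TUBB rows were at 0.637% and 1.21% of the non-directional level of their own gene, inside the range of rows with no gene opposite.

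Every called row of the MHC class I antigen presentation genes fell. Of 9 rows opposite a gene of this list 5 fell and none rose, against 8.54% lower among all rows, with a median of -0.66 (log2, against 0.0015 over all rows). Of 8 rows named for one 3 fell and none rose, and the uncalled rows lay on both sides of 0, with TAPBPL at 0.44 and TAPBP at -0.57 (log2). In the non-directional libraries, where 51.5% of all genes were called, 15 of 17 tested genes of the list fell. PSMB8-AS1 held 267, 301 and 239 reads in wild-type libraries and 69, 62 and 63 in knockout libraries, a fall from 443 ± 7.21 to 111 ± 3.40 CPM (mean ± SD of 3, adjusted p = 5.3e-30 by edgeR). It lies opposite TAP1, a subunit of the peptide transporter, and PSMB8, a subunit of the immunoproteasome, which changed by -1.42 and -3.59 in the non-directional libraries. The pseudogene row opposite HLA-B, AL671883.2, fell from 771, 817 and 643 to 334, 334 and 333 reads (log2 -1.10). HLA-B itself fell by 1.19 in the non-directional libraries. HLA genes and their pseudogenes are near-identical copies, so reads may be split among them. The TAP1 row, opposite PSMB8-AS1 and the body of PSMB9, fell from 24, 28 and 20 to 5, 5 and 3 (log2 -2.38, edgeR adjusted p = 1.5e-07).

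Among the zinc finger rows that passed the test, more rose than fell. Of 92 rows opposite a gene whose symbol begins with ZNF, 17 rose and 4 fell, and of 58 rows named for one, 13 rose and 2 fell, against 7.67% higher and 8.54% lower among all rows. The medians were 0.15 and 0.23 (log2), and the other rows of the list did not pass. AC008969.1, opposite ZNF606, rose from 7, 13 and 8 to 100, 83 and 78 reads (log2 change 3.26 ± 0.22 SE, adjusted p = 4.2e-24 by edgeR), and ZNF606 by 1.78 in the non-directional libraries. ZNF224 rose from 107, 106 and 89 to 309, 295 and 274 (log2 1.60), while non-directional ZNF224 did not change detectably (log2 -0.01, adjusted p = 0.965) and the antisense gene AC021092.1 over it rose by 1.83. ZNF135 rose from 80, 96 and 75 to 220, 239 and 193 (log2 1.43), opposite the zinc finger gene ZSCAN18, which rose by 1.63. ZNF517, with no gene opposite, rose from 51, 67 and 40 to 256, 206 and 182 (log2 2.08). In each of these rows the genotypes did not overlap. The list holds families of similar genes, whose reads the counting may have split.

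All called protocadherin rows rose. These adhesion genes of chromosome 5 lie in tandem clusters, and 5 of 6 rows opposite them rose, against 7.67% of all rows, with a median of 1.06 (log2). AC244517.11, opposite PCDHB5 and PCDHB15, held 51, 40 and 35 reads in wild-type libraries and 142, 127 and 112 in knockout libraries (log2 change 1.65 ± 0.14 SE, adjusted p = 1.5e-17 by edgeR). AC244517.2 rose from 35, 43 and 19 to 88, 85 and 69 (log2 1.37). It lies opposite PCDHB3, PCDHB7 and PCDHB6, with 356, 255 and 59 shared exonic bases. AC005618.3, opposite PCDHGB1, rose from 1, 6 and 3 to 14, 14 and 21 (log2 2.31). In the non-directional libraries PCDHB5, PCDHB3 and PCDHGB1 rose by 1.69, 1.56 and 1.98, and PCDHB15 and PCDHB6 by 3.01 and 0.61. PCDHB7 had 7, 3 and 2 against 9, 3 and 3 reads there, too few to be tested. The 1 row named for a protocadherin, the pseudogene PCDHB18P, rose from 6, 4 and 1 to 22, 28 and 21 (log2 2.71), where the antisense gene AC244517.11 lies opposite with at most 1 non-directional read.

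Among germline genes, NLRP2, an oocyte-expressed gene of the innate immune receptor family, held 0, 0 and 0 reads in wild-type libraries and 22, 17 and 19 in knockout libraries. With the wild type set at 3 reads per library the row was at least 6.65-fold higher (edgeR adjusted p = 7.3e-12). Its own non-directional reads went from 20, 24 and 15 to 3724, 3639 and 3767. The NLRP2 row amounted to 0.577% of that level, within the range of the well-covered rows with no gene opposite given earlier. NLRP7, whose body overlaps 426 of its exonic bases, rose from 5, 2 and 9 to 209, 222 and 232. CASTOR3 rose from 5, 1 and 4 to 16, 12 and 16 (log2 fold change 2.15, edgeR adjusted p = 1.9e-04), opposite STAG3, a meiotic cohesin gene, which rose by 1.94. SYCP3, named for a synaptonemal complex protein, rose by 0.42, but CHPT1 opposite it, a phospholipid synthesis gene, rose by 0.25 while SYCP3 had at most 11 non-directional reads per library.

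Developmental transcription factor rows fell in part. PAX6, an eye and brain development gene, and ELP4, an Elongator subunit gene, share 5241 exonic bases. The PAX6 row fell from 23, 31 and 15 to 6, 8 and 6 reads (log2 fold change -1.71, edgeR adjusted p = 4.9e-05) and the ELP4 row from 14, 34 and 21 to 12, 6 and 5 (log2 -1.51, adjusted p = 3.6e-04). In the non-directional libraries PAX6 changed by -2.02 and ELP4 by 0.01. NEUROG2, a neurogenic factor gene, fell from 11, 27 and 15 to 9, 3 and 5 (log2 -1.56), a call lost without wild-type replicate 2 (edgeR adjusted p = 0.106) and not made by the DESeq2 Wald test (0.057). NKX2-2-AS1, opposite NKX2-2, fell by 0.65, and AC006450.2, opposite LHX2, rose by 0.36. The list also holds ELP4, which is no transcription factor. With it, 1 of 6 rows named for a listed gene rose (TBX10) and 3 fell, and 1 of 5 rows opposite one rose and 3 fell. Without it, 1 of 5 named rows rose and 2 fell, and 1 of 3 opposite rows rose and 2 fell, against 7.67% higher and 8.54% lower among all rows.

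Other lists held few calls. Among rows opposite H3K9 methylation and HUSH genes, 2 of 8 fell and none rose, against 8.54% lower among all rows: CERS2, which lies opposite the targeted gene itself, and AC231533.1, opposite the methyltransferase gene SUV39H1, from 207, 249 and 198 to 144, 114 and 130 reads (log2 fold change -0.70, edgeR adjusted p = 6.4e-09). SUV39H1 fell by 0.74 in the non-directional libraries. None of the 7 rows named for such a gene passed the test, TRIM28 among them (log2 0.02). AP001059.1, opposite DNMT3L, a cofactor of de novo DNA methylation, rose by 0.60 (edgeR adjusted p = 0.037), a call lost without any 1 of wild-type replicates 1 and 3 and knockout replicates 1, 2 and 3 (0.054 to 0.138) and with the DESeq2 Wald test (0.289). TLDC2, opposite the nucleotide hydrolase gene SAMHD1, rose by 0.46, the only call among 5 rows opposite nucleic acid sensing genes, a share near the 16.2% of all rows. SGCE, opposite the retrotransposon-derived imprinted gene PEG10, rose by 0.21, a call lost without wild-type replicate 2 (edgeR adjusted p = 0.066) or knockout replicate 3 (0.060), and was 1 of 7 rows called in either reading of the imprinted genes, also near that share.

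HOXC-AS2 was the only called row of the HOX genes, at 0.86 (log2, edgeR adjusted p = 0.043). Tested were 12 rows named for a HOX gene and 13 opposite one, and 16.2% of all rows were called. Non-directional HOXC-AS2 rose from 8, 11 and 13 to 24, 22 and 21 reads (log2 0.99, edgeR adjusted p = 0.0036). The HOXC-AS2 row stood at 98.1% of that level. It lies opposite HOXC6, which rose by 1.09, and HOXC9, which fell by 3.02 in the non-directional libraries. The call was lost without any 1 of wild-type replicates 1 to 3 and knockout replicates 1 and 2 (edgeR adjusted p = 0.073 to 0.342). No row of hematopoietic markers had enough reads to test, and none of the 2 rows named for or 3 rows opposite epithelial and fibroblast markers passed. Of 3 rows opposite housekeeping genes 1 fell, AL662797.1 given above, against 8.54% lower among all rows. Of 8 rows named for one 1 rose, against 7.67% higher among all rows. That row, EEF1A1, a translation elongation factor gene, held 43, 44 and 24 reads in wild-type libraries and 62, 49 and 134 in knockout libraries (log2 1.20, edgeR adjusted p = 1.5e-06). Knockout replicate 3 stood far above the rest, without it the value was 0.61, and the DESeq2 Wald test did not call the row (adjusted p = 0.147).

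Mitochondrial rows showed an uneven change along the circular genome, whose strands are both transcribed whole and then cut into RNAs. They took 1.79% ± 0.007 of gene counts in wild-type and 1.54% ± 0.09 in knockout libraries (mean ± SD of 3, two-sided exact permutation test p = 0.1, the smallest these groups allow, and 0.3 after Benjamini-Hochberg adjustment over 6 shares). MT-CYB, which encodes cytochrome b, held 440, 430 and 386 reads in wild-type libraries and 968, 932 and 741 in knockout libraries. It changed by 1.13 (log2, ± 0.06 SE, adjusted p = 5.9e-30 by edgeR), whereas non-directional MT-CYB changed by -0.25. MT-ND6, the 1 protein gene of the minus strand, lies next to it and held 2643, 2887 and 2144 against 1610, 1505 and 1333 reads (log2 -0.73, edgeR adjusted p = 2.5e-28). MT-ND5, on its other side, changed by -0.17. Of 14 plus-strand rows tested 1 rose and 7 fell, and of 6 minus-strand rows 1 rose and 3 fell. Among all rows 7.67% were higher and 8.54% lower. MT-TQ was the minus-strand row that rose, from 16, 15 and 8 to 24, 27 and 30 reads (log2 1.11, edgeR adjusted p = 0.0015). MT-RNR2, a ribosomal RNA gene, fell from 235, 280 and 234 to 124, 108 and 113 reads (log2 -1.06) with its non-directional value at -0.81. Nuclear copies of mitochondrial DNA could share some of these reads.

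**Figure D5:**
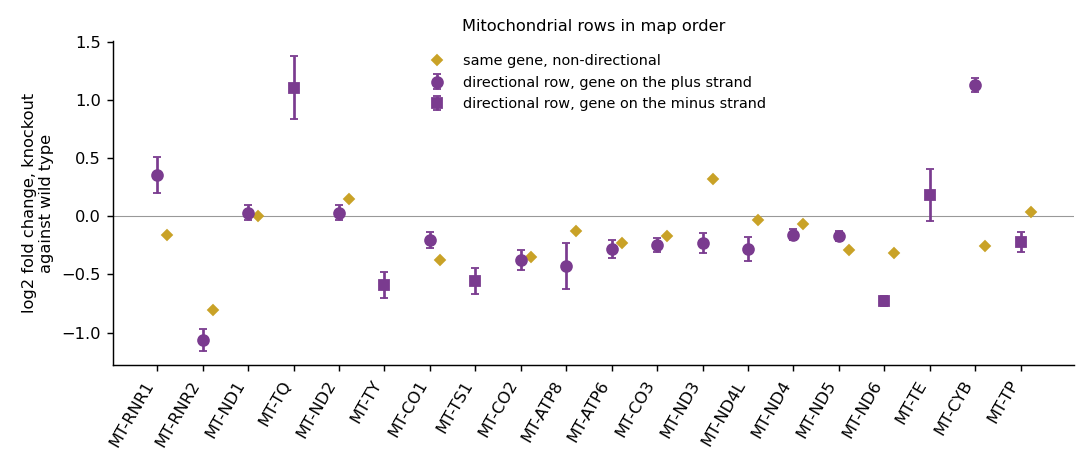
Log2 fold change, knockout against wild type (y axis), of the 20 tested mitochondrial rows in map order (x axis); purple points are directional rows with SE bars (circles for plus-strand genes, squares for minus-strand genes) and yellow diamonds are the non-directional values of the same genes where tested. MT-CYB stands at 1.13 against -0.25 and MT-TQ at 1.11, and most other directional rows lie at or below 0.

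Part of the calls lay in chromosome stretches whose rows had medians away from 0. The 3 stretches were chosen because earlier results of these data showed shared shifts there. Their medians and shares are therefore descriptions and no separate support for such shifts. Rows of a stretch of the long arm of chromosome 1 had a median of -0.48 (log2, 174 rows, against -0.47 for the non-directional genes there), and 83 of them fell, against 8.54% among all rows, which is 20.5% of all rows that fell. SETDB1, CERS2, C1orf21, MEX3A and ANXA9 lie in it, the last falling from 38, 25 and 24 to 11, 6 and 13 reads. Rows of a stretch of the long arm of chromosome 9 had a median of 0.22, with 9 of 40 called and all of them higher, and 4 of 12 rows around the chromosome 19 centromere rose, against 7.67% higher among all rows. With these rows left out, 671 calls remained.

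The kits were compared directly in 1 fit over the 12 libraries. The knockout effect on a row differed from that on the same gene in the non-directional libraries for 288 of 15832 rows (1.82%). Among the 69 rows named by rule or singled out here, 25 did so. Only 4745 rows had enough reads for the fit of the directional libraries alone. The share of 1.82% therefore does not measure how far the kits gave the same result.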

How the data were processed

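The publication named in the header concerns another experiment, so none of its methods were used. Per the labels, total RNA of each culture was made into libraries with a NEBNext Ultra II kit, with or without the directional step. The authors deposited raw gene counts for each library in the layout of HTSeq, and the submitters' processing notes name Trim Galore 0.4.4, STAR 2.6.0a, SAMtools 1.9, Picard 2.23.8, HTSeq 0.11.1 and the build hg38. The strand setting of the counter is not given in the sources used here. All 58735 gene IDs matched GENCODE release 29, which gave symbols, strands and overlaps. The lines for reads in no gene or in several genes (94.6% and 0.14% of directional reads) stayed out of library sizes. The tables of L1 elements were not used.

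Each kit was fitted alone: filterByExpr (minimum count 10, minimum total 15), TMM and edgeR's quasi-likelihood test (version 4.0.16, R 4.3.3), with Benjamini-Hochberg adjustment over all rows and a threshold of 0.05. Approximate standard errors came from the fold change and its F value. DESeq2 1.42.0 was an alternative, and the other alternatives are given with the closing values. On counts simulated for the 4745 directional rows, 77% of 2-fold and 99% of 4-fold changes were recovered, and 4.87% of the calls were false. Each size was given to 100 rows, and the counts were drawn from the kind of model that edgeR fits, with its fitted spread. The simulation therefore checks the code and does not measure the false share among the real calls. Correlations across rows carry no p. Intervals are exact conditional 95% intervals, and they and the floor of 3 reads cover counting error only, since reads without molecular identifiers are not independent molecules.

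Same-numbered libraries did not deviate together (correlations of -0.023 to 0.018). Replicates differed little beyond counting noise, so these values cannot tell whether the replicate numbers pair the genotypes. The fits reported here used no pairing, and a fit with a replicate block is given with the closing values.

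Rows were named by rule: SETDB1 and rows overlapping it, the 12 largest changes in each direction among called rows with separate ranges, the 6 most abundant called rows in each direction, the 4 largest in each direction with no gene opposite, and up to 4 per list by p. Of these, 2 rows are not reported here. All rows, lists, chromosome stretches, cut-offs (10% and 1000 reads) and the part described were chosen with earlier results of these data known. Genes said to be named after their values were seen fall outside the rule. So do the rows given by partner for reads the other kit barely lists. MT-CYB, MT-TQ, MT-RNR2, ANXA9, TAPBPL, TAPBP, NKX2-2-AS1 and AC006450.2 fall outside it too.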

Additional observations from a re-analysis of the deposited data

Results flagged for a closer look

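The knockout effect of 288 rows differed between the kits by the genotype by kit term of edgeR at an adjusted p of 0.05. For the 25 of these rows that are named, the values are differences of log2 fold changes, directional minus non-directional, of the row with the same name.

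Rows with an opposite-strand gene differed by 1.74 for SETDB1, -1.39 for CERS2, 2.47 for GAS6, -4.82 for TTC30A, -4.63 for ZFAND1, 0.45 for MMACHC, 2.37 for CASTOR3, 0.59 for SGCE, -1.47 for ELP4, 1.21 for EEF1A1, 2.27 for PCDHB18P, 1.68 for ZNF224 and 1.43 for AC008969.1. The EEF1A1 value rests mainly on knockout replicate 3. Rows with no gene opposite differed by 4.57 for DPY30, 5.32 for NUDT8, 3.11 for MEMO1, -2.82 for C1orf21, 0.78 for ZNF517, 4.74 for RGMA, 2.32 for IQSEC1 and 2.84 for SIVA1. Mitochondrial rows differed by 1.45 for MT-CYB, -0.34 for MT-ND6, 0.19 for MT-ND5 and 0.58 for MT-RNR1. The NUDT8, RGMA and MT-CYB rows rose in the directional and fell in the non-directional knockout libraries, and the genotypes did not overlap in either kit.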

How the results depend on the processing

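The DESeq2 Wald test moved the count of called rows from 769 to 330, of called rows with an opposite-strand exon from 661 to 280, with no gene opposite from 93 to 41, in the gene lists from 62 to 41 and in the chromosome stretches from 98 to 39. It moved the share of called rows with the sign of their partner from 94.8% to 98.4%, and the fit with no filter moved it to 96.9%. With a log2 fold change of at least 1 also required, 188 rows remained. The other scalings, the mean filter, the fit over 12 libraries and the leave-one-out fits (598 to 688 calls) stayed within 1.5 times of 769, and none of the calls shared with the fit reported here changed sign. The replicate block gave 712 calls and -0.71 for SETDB1, and it changed no named call.

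Of 67 named rows besides SETDB1 and CERS2, 7 lost their call under some alternative, in 29 of 841 values, and none reversed. With the DESeq2 Wald test these were MIF-AS1, MEX3A, AP001059.1, SGCE, NEUROG2, EEF1A1 and HOXC-AS2. MT-RNR1 passed only without knockout replicate 3. With a mean of at least 20 reads, 31 named rows including SETDB1 were too low to test. SETDB1 stayed between -1.21 and -0.44 over the leave-one-out fits and never passed, and CERS2 between -2.02 and -1.91. Differences in shares near 0 changed sign when 1 library was left out: reads in genes (percentage points, -0.037 to 0.00052), gene counts in rows with an opposite exon (-0.079 to 0.045) and with none (-0.076 to 0.042). The low depth limits rows under about 5 CPM.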
